A study of Mus musculus with 6 samples.

Results

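The genes described here lie on distal mouse chromosome 4 in a window of 6.0 Mb that holds a cluster of zinc finger genes. Members were chosen by the position of their start and by having 15 or more reads summed over the 6 libraries. This rule took 65 of the 215 annotated genes of the window, from *Prdm2* (143107391) to *Pex14* (148960535) by start (mm10, the assembly GRCm38). Over the whole genome 15828 genes had 15 or more reads. The members comprise 16 zinc finger genes of the cluster and 49 other genes, of which 12 lie inside the span of the zinc finger genes, 11 on its centromere side and 26 on its telomere side.

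The libraries hold RNA of cDC1s from day 8 of mouse bone marrow cultures with 80 ng/mL FLT3L, the growth factor of DC development. The sort took CD24+ CD11c+ cells negative for B220, CD115 and CD172a. Compared were 3 controls with floxed alleles of *Jun* and *Junb* and no Cre (c-Jun/JunB fl/fl, here fl/fl 1, 2 and 3) and 3 samples given as c-Jun/JunB-deficient, in which the same floxed alleles are combined with *Itgax*-Cre (c-Jun/JunB Δ/Δ *Itgax*-Cre, here Δ/Δ 1, 2 and 3). The comparison asks how the RNA of cDC1s differs between these genotypes. The mice of the study were female and male, 8–16 weeks old and of mixed 129 Sv × C57BL/6 origin. The *Itgax* promoter limits Cre to cells that express CD11c. A supplementary legend of the study presents these RNA-seq samples as single mice, so p-values measure the spread between mice of this experiment. Depth on genes was 25860931, 26788296 and 23666519 reads for fl/fl 1, 2 and 3, and 24429016, 21693217 and 22874838 reads for Δ/Δ 1, 2 and 3. Levels are CPM (counts scaled to library size with TMM factors), libraries of a genotype are always listed in the order 1, 2 and 3, ± gives the SD over 3 libraries and SE is the standard error of a log2 fold change.

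KRAB zinc finger proteins bind DNA through a row of C2H2 fingers, and their KRAB domain recruits the corepressor Trim28 (KAP1), which brings in enzymes that methylate histones and silence chromatin. Many of them bind retrotransposons. Their genes multiply by local duplication, so that a cluster holds close copies.

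The targeted genes come first. *Jun* (ENSMUSG00000052684.4, 95049034 to 95052222, minus strand of chromosome 4), which encodes c-Jun and lies outside the window on the same chromosome, stood at 70.9, 52.5 and 63.1 CPM in the fl/fl libraries against 48.2, 44.3 and 60.5 CPM in the Δ/Δ libraries. *Junb* (ENSMUSG00000052837.6, 84974484 to 84978718, minus strand of chromosome 8) stood at 315, 274 and 413 CPM in the fl/fl libraries against 110.4, 171 and 212 CPM in the Δ/Δ libraries. The genotypes overlapped for *Jun* but not for *Junb*, and neither gene was called (log2 fold changes of −0.29 and −1.02, adjusted p of 0.345 and 0.0729 by the quasi-likelihood test of edgeR, Benjamini-Hochberg adjusted). For *Junb* the adjusted p ranged from 1.19e-04 to 0.228 over the alternatives. It was under 0.05 in 4 of 12, and the gene was called in 3 of these, where the fold limit was met as well. Counts of a whole gene do not show how many cells carry the deletion. *Itgax* (ENSMUSG00000030789.9, 128129547 to 128150657, plus strand of chromosome 7), which encodes CD11c and whose promoter drives the Cre, stood at 114, 128 and 153 CPM in the fl/fl libraries against 44.8, 55.1 and 69.0 CPM in the Δ/Δ libraries. All Δ/Δ libraries were lower, and the gene was called (log2 fold change −1.22, edgeR adjusted p = 0.0147). Without fl/fl 1, 2 or 3 this call was lost (edgeR adjusted p = 0.0526, 0.0781 and 0.0505, range over alternatives 2.12e-10 to 0.0781).

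Markers of cDC1s were abundant in every library. All 11 were tested, and they summed to 12023, 12084 and 11824 CPM in the fl/fl libraries against 9785, 11772 and 10364 CPM in the Δ/Δ libraries, with *Wdfy4* the most abundant and none at 0. Their log2 fold changes were above 0 in 5 and below in 6 (median −0.13), and all Δ/Δ libraries were lower in 4 and higher in 1. The genotypes thus did not overlap in 45.5% of these markers, against 26.0% of all tested genes. *Xcr1*, a chemokine receptor of cDC1s, was called lower, with 446 ± 27.1 CPM in fl/fl against 167 ± 40.7 CPM in Δ/Δ (log2 fold change −1.42, edgeR adjusted p = 0.00812). The 8 cDC2 markers summed to 223, 246 and 369.7 CPM in the fl/fl libraries against 518, 608 and 752 CPM in the Δ/Δ libraries, with none at 0. *Cd209a* was the most abundant over all libraries together. In fl/fl it had a mean of 49.2 CPM, below the 82.7 CPM of *Klf4*. Of the 8 cDC2 markers, *Cd209a* and *Cd4* were called higher (log2 fold changes of 2.25 and 2.30, edgeR adjusted p = 0.00556 and 0.0339). All Δ/Δ libraries were higher in 5 of the 8 (62.5%), and the genotypes overlapped in the others. The 7 pDC markers summed to 1169, 1238 and 1204 CPM in the fl/fl libraries against 1349.9, 1381 and 1554 CPM in the Δ/Δ libraries, led by *Ptprc*, which all leukocytes express and which makes up most of the sum, with none at 0. All Δ/Δ libraries were higher in 3 of them and lower in *Bst2*, named after its values were seen (log2 fold change −0.41, edgeR adjusted p = 0.0572). The genotypes overlapped in the other 3, so that 57.1% of the pDC markers did not overlap. *Ccr9*, a chemokine receptor of pDCs, was called higher (log2 fold change 1.41, edgeR adjusted p = 0.00333). Monocyte and macrophage markers, led by *Lyz2*, summed to 1791, 1974 and 1961 CPM in the fl/fl libraries against 2426, 1963 and 2588 CPM in the Δ/Δ libraries. Neutrophil markers, with *Elane* and *Ly6g* at 0, summed to 4.20, 15.8 and 17.6 CPM in the fl/fl libraries against 0.852, 7.42 and 5.33 CPM in the Δ/Δ libraries. B cell markers, led by *Cd79b*, summed to 30.2, 18.9 and 25.8 CPM in the fl/fl libraries against 13.0, 49.4 and 24.4 CPM in the Δ/Δ libraries. None of these 3 lists had a called gene by edgeR or limma-voom, and DESeq2 called *Ngp* of the neutrophil list lower. At an unadjusted edgeR p under 0.05 were 2 of 6, 1 of 3 and 0 of 5 tested genes, against 19.4% of all tested genes. *Adgre1* of the monocyte list, *Tlr3* of the cDC1 list and *Klf4* of the cDC2 list, named after their values were seen, passed the adjusted p but not the fold limit (log2 fold changes of 0.91, −0.77 and 0.97, edgeR adjusted p = 0.0317, 0.0226 and 0.0321). Of the mast cell and basophil list *Kit* alone was tested and it was not called. *Cpa3*, *Mcpt8* and *Prss34* of this list, untested and named after their values were seen, were higher in all Δ/Δ libraries and highest in Δ/Δ 2, at 2.38, 4.81 and 5.51 CPM. For *Cpa3* this rests on 0.122 CPM in Δ/Δ 1 against 0.111 CPM in fl/fl 2, both near the floor. The untested *Fcer1a* and *Ms4a2* of the list, also named after their values were seen, overlapped between genotypes, as did *Kit*. T and NK cell markers summed to at most 1.10 CPM in a library and erythroid markers to at most 0.420 CPM. *Pecam1*, which leukocytes share with endothelium, was called higher, with 27.2 ± 4.07 CPM in fl/fl against 80.0 ± 10.6 CPM in Δ/Δ (log2 fold change 1.56, edgeR adjusted p = 0.00346), while *Col1a1*, *Col1a2* and *Cxcl12* of the same list were at 0 in all libraries. In bulk RNA, fewer cells of a type and less RNA per cell cannot be told apart. The part of these markers in the results on chromosome 4 was not tested.

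Promoter sequences were compared among the zinc finger genes. RefSeq promoters (GRCm38.p6, 250 bases before to 50 after a start) were matched by symbol for 36 of the 65 members. That of *Zfp985* is shown as a zinc finger gene called higher, that of *Zfp534* as a gene with the same direction that missed the threshold, those of *Gm13212* and *Zfp984* as abundant neighbours that were not called, and that of *Angptl7* as a called gene without zinc fingers. They lie at chr4:147553027-147553326 (plus strand), chr4:147702582-147702881 (minus strand), chr4:145584950-145585249 (plus strand), chr4:147809739-147810038 (minus strand) and chr4:148500413-148500712 (minus strand) and are written 5′ to 3′ on the strand of the gene. Capitals mark the letters GGGCGG (a GC box) on either strand.
Zfp985: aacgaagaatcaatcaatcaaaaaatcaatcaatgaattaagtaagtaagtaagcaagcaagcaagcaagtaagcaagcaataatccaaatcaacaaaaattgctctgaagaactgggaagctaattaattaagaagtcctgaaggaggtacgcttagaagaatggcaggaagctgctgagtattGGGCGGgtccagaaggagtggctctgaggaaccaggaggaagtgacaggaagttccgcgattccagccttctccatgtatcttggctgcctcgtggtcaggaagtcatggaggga
Zfp534: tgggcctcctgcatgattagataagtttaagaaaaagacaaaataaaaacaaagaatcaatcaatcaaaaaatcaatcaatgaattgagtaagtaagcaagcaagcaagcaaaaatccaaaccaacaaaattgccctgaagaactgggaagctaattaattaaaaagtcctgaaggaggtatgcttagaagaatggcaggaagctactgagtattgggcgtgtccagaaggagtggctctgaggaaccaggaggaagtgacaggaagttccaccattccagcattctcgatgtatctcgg
Gm13212: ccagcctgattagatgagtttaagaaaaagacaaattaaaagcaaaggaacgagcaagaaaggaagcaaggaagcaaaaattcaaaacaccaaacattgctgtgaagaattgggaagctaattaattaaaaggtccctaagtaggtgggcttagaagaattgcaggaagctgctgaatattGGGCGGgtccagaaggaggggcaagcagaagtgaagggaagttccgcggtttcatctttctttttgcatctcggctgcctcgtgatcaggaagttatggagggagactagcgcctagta
Zfp984: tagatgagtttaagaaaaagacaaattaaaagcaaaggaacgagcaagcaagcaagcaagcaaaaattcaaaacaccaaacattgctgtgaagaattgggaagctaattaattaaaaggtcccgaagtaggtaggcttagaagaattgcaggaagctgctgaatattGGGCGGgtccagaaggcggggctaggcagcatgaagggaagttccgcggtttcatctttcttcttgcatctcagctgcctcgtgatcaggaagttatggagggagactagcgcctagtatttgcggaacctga
Angptl7: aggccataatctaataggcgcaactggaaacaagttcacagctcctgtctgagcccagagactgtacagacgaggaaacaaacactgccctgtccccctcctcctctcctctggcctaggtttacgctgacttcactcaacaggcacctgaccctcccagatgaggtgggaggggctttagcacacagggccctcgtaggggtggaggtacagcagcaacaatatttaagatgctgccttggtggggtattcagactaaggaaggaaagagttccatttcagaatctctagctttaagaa
The GC box letters occurred in the promoters of *Zfp985*, *Gm13212* and *Zfp984* but not of *Zfp534* and *Angptl7*. They occurred in 8 of 13 promoters of zinc finger genes of the cluster (61.5%) and in 27 of 52 promoters of members (51.9%). Of 32851 promoters of all genes 35.7% held them. The AP-1 letters TGANTCA and the related TGACGTCA, searched on both strands, occurred in 7.81% and 1.79% of all promoters and in none of 13 promoters of 11 zinc finger genes of the cluster. *Zfp990* has no promoter in this set and was not searched. TGANTCA occurred in 3 of 52 promoters of members, those of *Gm17029*, *Tnfrsf8* and *Vps13d*. A match describes letters, and no match says only that these letters are not in the window. Aligned end to end, the 55 pairs among 11 zinc finger promoters had a median identity of 56.7%, from 39.7 to 89.5%. Unrelated promoters were not aligned, so the median by itself does not show likeness. *Gm13212* and *Zfp984* were 87.6% identical, and *Zfp988* and *Zfp534* had the highest identity.

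*Zfp990* (ENSMUSG00000078503.9, 145510759 to 145539188, plus strand), the first zinc finger gene of the cluster by position, was without reads in fl/fl and stood at 20.4, 36.3 and 40.7 CPM in the Δ/Δ libraries. It was read in all Δ/Δ libraries and in no control. Whether mice of the genotypes carry different strain alleles here, which could alter both levels and unique mapping, was not tested. The Δ/Δ mean of 32.5 ± 10.7 CPM was at least 828-fold higher than 3 reads pooled over the fl/fl libraries (0.0392 CPM, which covers counting error only), with an edgeR adjusted p of 0.00309. Its fitted fold change depends on the prior count and is no bound. The protein coded by *Zfp990* holds 13 C2H2 motifs, and the gene was called under each of 12 alternatives (adjusted p from 5.39e-21 to 0.0176).

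*Zfp985* (ENSMUSG00000065999.13, 147553277 to 147585198, plus strand), with 10 C2H2 motifs, stood at 0.0386, 0.148 and 0.170 CPM in the fl/fl libraries against 1.58, 1.91 and 1.98 CPM in the Δ/Δ libraries. All Δ/Δ libraries lay above all fl/fl libraries, at a low level, with 9 reads in fl/fl and 125 in Δ/Δ. It passed both limits of a call (log2 fold change 3.89, SE 0.47, edgeR adjusted p = 0.00793). Without fl/fl 2 the call was lost (edgeR adjusted p = 0.0630, range over alternatives 1.82e-06 to 0.0630). Among coding genes *Zfp990* was closest to *Zfp985* in sequence, 88.3% identical over 72.1% of its transcript.

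*Zfp534* (ENSMUSG00000062518.7, 147673502 to 147702553, minus strand), with 15 C2H2 motifs, stood at 0.0386, 0.185 and 0 CPM in the fl/fl libraries against 0.730, 0.980 and 0.881 CPM in the Δ/Δ libraries. The genotypes did not overlap, but the gene missed the threshold (its log2 fold change was 3.39, SE 0.74, edgeR adjusted p = 0.0564). It passed by DESeq2, by limma-voom, with no filter on low counts and without Δ/Δ 1 (adjusted p of 0.0124, 0.0330, 0.0415 and 0.0436, range over alternatives 0.0124 to 0.251). *Zfp981* (ENSMUSG00000056300.14, 146502027 to 146539395, plus strand), with 7 C2H2 motifs, reached the limit of the filter on low counts in 2 libraries alone, so that it was not tested, and stood at 0.0771, 0 and 0 CPM in the fl/fl libraries against 0.284, 0.933 and 1.59 CPM in the Δ/Δ libraries. *Zfp988* (ENSMUSG00000078498.5, 147305674 to 147333734, plus strand), with 14 C2H2 motifs, was not tested either and stood at 0.116, 0.0371 and 0.170 CPM in the fl/fl libraries against 0.325, 0.373 and 0.440 CPM in the Δ/Δ libraries. In both of these genes all Δ/Δ libraries lay above all fl/fl libraries. *Zfp981* entered the test in 5 alternatives. It was called higher with no filter on low counts and without Δ/Δ 1, but not when any 1 of the fl/fl libraries was left out.

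**Figure D1:**
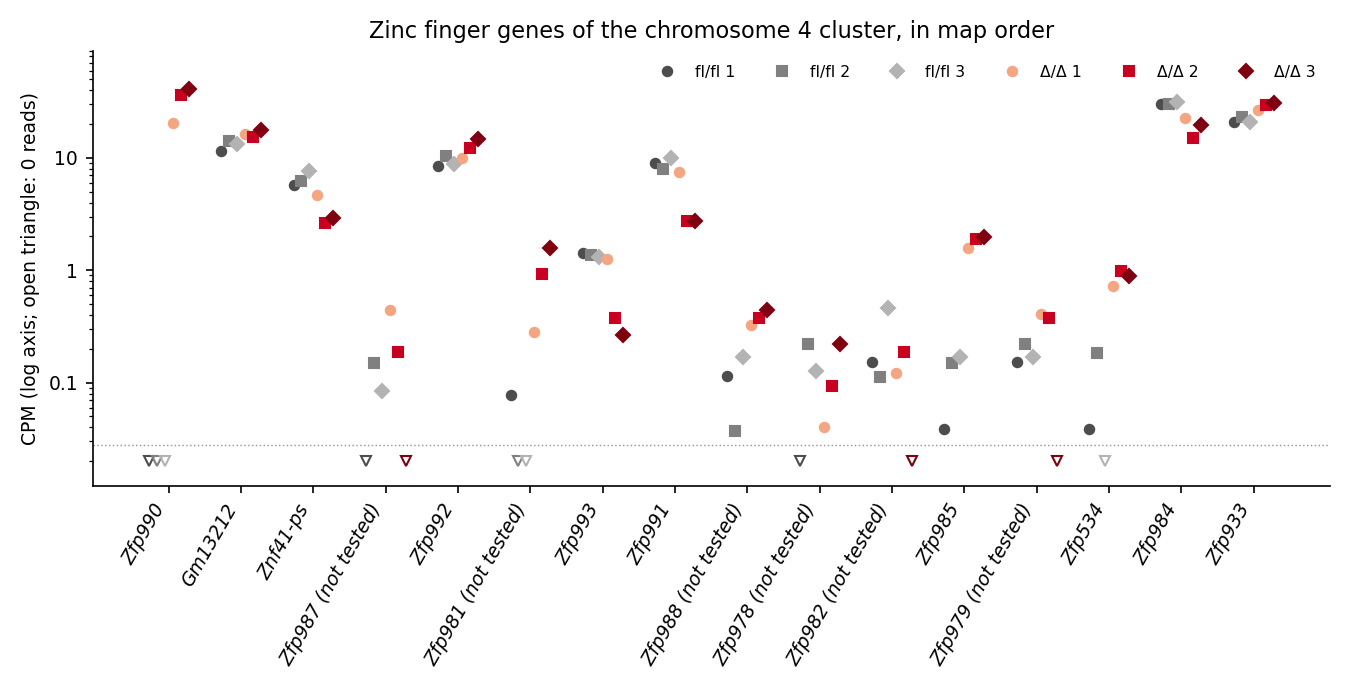
CPM (log axis) of the 16 zinc finger genes of the cluster in map order, 1 point per library, with open triangles for 0 reads. *Zfp990* is at 0 in all fl/fl libraries and between 20.4 and 40.7 CPM in the Δ/Δ libraries, while *Zfp984* and *Zfp933* are above 15 CPM in every library.

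The tested zinc finger genes with log2 fold changes below 0 number 4. *Zfp984* (ENSMUSG00000078495.10, 147753974 to 147809788, minus strand), with 11 C2H2 motifs, stood at 30.1, 30.5 and 31.2 CPM in the fl/fl libraries against 22.5, 15.1 and 19.6 CPM in the Δ/Δ libraries. All Δ/Δ libraries lay below all fl/fl libraries, yet the gene missed both limits of a call (log2 fold change −0.68, SE 0.14, edgeR adjusted p = 0.0509, range over alternatives 9.21e-04 to 0.188). It shares 282 exon bases with the noncoding *Gm20707* on the same strand, so its reads are uncertain there.

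*Zfp991* (ENSMUSG00000067916.9, 147132038 to 147180579, plus strand), with 11 C2H2 motifs, stood at 9.06, 7.90 and 9.97 CPM in the fl/fl libraries against 7.47, 2.75 and 2.73 CPM in the Δ/Δ libraries. The pseudogene *Znf41-ps* (ENSMUSG00000084350.1, 145825237 to 145829942, plus strand) stood at 5.78, 6.23 and 7.59 CPM in the fl/fl libraries against 4.67, 2.66 and 2.91 CPM in the Δ/Δ libraries. *Zfp993* (ENSMUSG00000063245.11, 146610961 to 146658160, plus strand), with 2 C2H2 motifs, stood at 1.43, 1.37 and 1.32 CPM in the fl/fl libraries against 1.26, 0.373 and 0.264 CPM in the Δ/Δ libraries. In these 3 genes Δ/Δ 1 lay nearest to the controls and Δ/Δ 2 and 3 lay lower, and the genotypes did not overlap. None was called (log2 fold changes of −1.05, −0.93 and −1.10, edgeR adjusted p = 0.213, 0.102 and 0.338). Without Δ/Δ 1 all 3 were called lower (log2 fold changes of −1.71, −1.23 and −2.09, edgeR adjusted p = 0.00461, 0.0178 and 0.0273). The range over alternatives was 0.00461 to 0.448 for *Zfp991*, 0.0178 to 0.271 for *Znf41-ps* and 0.0273 to 0.603 for *Zfp993*.

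*Zfp933* (ENSMUSG00000059423.13, 147822986 to 147848366, minus strand), with 12 C2H2 motifs, stood at 20.8, 23.1 and 20.8 CPM in the fl/fl libraries against 26.5, 29.9 and 30.8 CPM in the Δ/Δ libraries. *Gm13212* (ENSMUSG00000078502.10, 145585166 to 145625345, plus strand), with 20 C2H2 motifs, stood at 11.5, 14.3 and 13.3 CPM in the fl/fl libraries against 16.3, 15.3 and 17.7 CPM in the Δ/Δ libraries. In both genes all Δ/Δ libraries lay above all fl/fl libraries, and both missed the threshold (log2 fold changes of 0.43 and 0.34, edgeR adjusted p = 0.0620 and 0.204). *Zfp992* (ENSMUSG00000070605.4, 146449023 to 146470292, plus strand), with 11 C2H2 motifs, stood at 8.41, 10.3 and 8.91 CPM in the fl/fl libraries against 9.98, 12.4 and 14.8 CPM in the Δ/Δ libraries. Its genotypes overlapped, and it was not called (log2 fold change 0.42, edgeR adjusted p = 0.250). The untested *Zfp987*, *Zfp978*, *Zfp982* and *Zfp979*, with 21, 17, 25 and 32 reads in all, overlapped between genotypes. *Prdm2*, a gene of the centromere side with 6 C2H2 motifs and no part of the cluster, stood at 102 ± 3.72 CPM in fl/fl against 109.6 ± 5.82 CPM in Δ/Δ (log2 fold change 0.11, edgeR adjusted p = 0.396).

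Per kb of full exon length, the mean fl/fl level was 10.5 CPM for *Zfp984*, 5.05 for *Zfp933*, 3.62 for *Gm13212* and 3.08 for *Zfp991*. The mean Δ/Δ level was 9.29 CPM per kb for *Zfp990*, 6.81 for *Zfp933*, 6.54 for *Zfp984* and 4.57 for *Gm13212*. These genes are not ranked, as unique counting can drop more reads from genes with more shared sequence. The 16 zinc finger genes summed to 87.6, 94.8 and 94.3 CPM in the fl/fl libraries against 113, 119.9 and 135 CPM in the Δ/Δ libraries. Without *Zfp990* the Δ/Δ sums were 92.5, 83.5 and 93.9 CPM, so that the genotypes overlapped.

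A gene was called where its adjusted p was under 0.05 with a change of at least 1 on the log2 scale. The window was chosen with earlier results of these data known, and the study names *Zfp990* among its top-ranked genes. The shares called in it are thus a description and support nothing about the cluster. Of the 10 zinc finger genes tested 2 were called, *Zfp990* and *Zfp985*, both higher, against 1.86% of 12894 genes called in either direction, 0.993% higher and 0.869% lower. The same 2 passed by edgeR adjusted p alone, against 3.88% of all tested genes. By DESeq2 and limma-voom 6 and 4 of the 10 passed it, against 1104 and 526 of 12894 genes, with the lower *Zfp984* among them by both. The genotypes did not overlap in 9 of the 10, 5 higher and 4 lower, against 26.0% of all tested genes. Their median log2 fold change was 0.38, also with *Zfp990* at its bound, and that of all tested genes was 0.00. With the stricter filter that of the zinc finger genes was −0.17, with 4 genes above 0 and 4 below. Without Δ/Δ 1, 7 of 11 tested were called, 4 higher and 3 lower, against 579 of 13250 genes of the whole table. Without fl/fl 2 *Zfp990* alone was called of 11, against 80 of 13262 genes of the whole table. None of the 10 was called lower by edgeR, DESeq2 or limma-voom. At an unadjusted p under 0.05 by these tools, 3, 3 and 4 of them were lower and 6, 6 and 5 higher. Of all 12894 tested genes, 1169, 1108 and 1374 were lower and 1327, 1256 and 1288 higher.

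Of the 65 members 48 passed the filter on low counts. At its limit of 0.416 CPM, 34 of them stood in every library, 6 in every fl/fl library alone, 7 in every Δ/Δ library alone and 1 in neither set. A filter that members can pass through 1 genotype favours those that differ. The genotypes did not overlap in 6 of the 7 that passed through Δ/Δ, *Zfp990*, *Zfp985*, *Zfp534*, *Angptl7* and *Gm21411* among them, and in 4 of the 6 that passed through fl/fl, with *Zfp993*, so counts and medians over the tested members support nothing about the members as a whole. As a description, of the 34 at the limit in every library 19 did not overlap (55.9%), against 26.2% of 11693 such genes of the whole table. The rule on reads acts likewise, as 43 members had 15 or more reads in each genotype, 4 in fl/fl alone, 13 in Δ/Δ alone and 5 only in the sum. The 17 untested members are 6 zinc finger genes and 11 others with 15 to 43 reads. Among the latter *Gm13230*, named after its values were seen, had no read in fl/fl and 26 reads in Δ/Δ. This pseudogene is the member next before *Zfp990* by start, and it is 85.5% identical to *Zfp982* over 82.9% of its transcript. Just inside the limit of 15 reads were *Gm13135* and *Gm17029* with 15 reads each, and just outside *Zfp989* and *Gm13160* with 12 each. *Zfp989* had a mean of 0.0141 CPM in fl/fl against 0.163 CPM in Δ/Δ. Of 21 annotated zinc finger genes of the cluster, 5 had 1 to 14 reads and are not members.

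Of the 38 other genes of the window that were tested 4 were called, all higher (10.5%), with 20 log2 fold changes above 0, 18 below and a median of 0.05. The genotypes did not overlap in 20 of them (52.6%). Called were 2 of 7 inside the span of the zinc finger genes, 2 of 22 on the telomere side and 0 of 9 on the centromere side by edgeR. On the centromere side limma-voom called none either. DESeq2 called *Dhrs3* higher and *Pdpn* lower there, both named after their values were seen, and edgeR called *Dhrs3* with no filter on low counts and without Δ/Δ 1. On this side 2 of the 9 had an unadjusted p under 0.05 by each tool. The number of other genes of the window called moved with single libraries, to 1 when fl/fl 1, when fl/fl 2 and when Δ/Δ 3 was left out, to 2 without fl/fl 3 and to 6 without Δ/Δ 1. In the same order the whole table gave 74, 80, 192, 154 and 579 calls. Of 758 other tested genes of chromosome 4, 3 were called higher and 12 lower (1.98%), and the genotypes did not overlap in 28.2%. In the windows of equal length on either side, 1 of 53 and 1 of 55 tested genes were called, and in the next distal window 4 of 47 (8.51%). The highest share in another window of the chromosome was 9.09%, 1 of 11 genes. These other windows were not chosen with results known, so their shares are no fair measure for this one. *Kazn*, the nearest gene with 15 or more reads before the window, with its start at 142102390, was named after its values were seen and stood at 0.270, 0.0371 and 0.594 CPM in the fl/fl libraries against 3.04, 10.7 and 14.6 CPM in the Δ/Δ libraries. It was called higher (log2 fold change 4.99, edgeR adjusted p = 0.0237). *Dffa*, the nearest such gene past the window, had a mean of 34.0 CPM in fl/fl against 41.6 CPM in Δ/Δ.

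**Figure D2:**
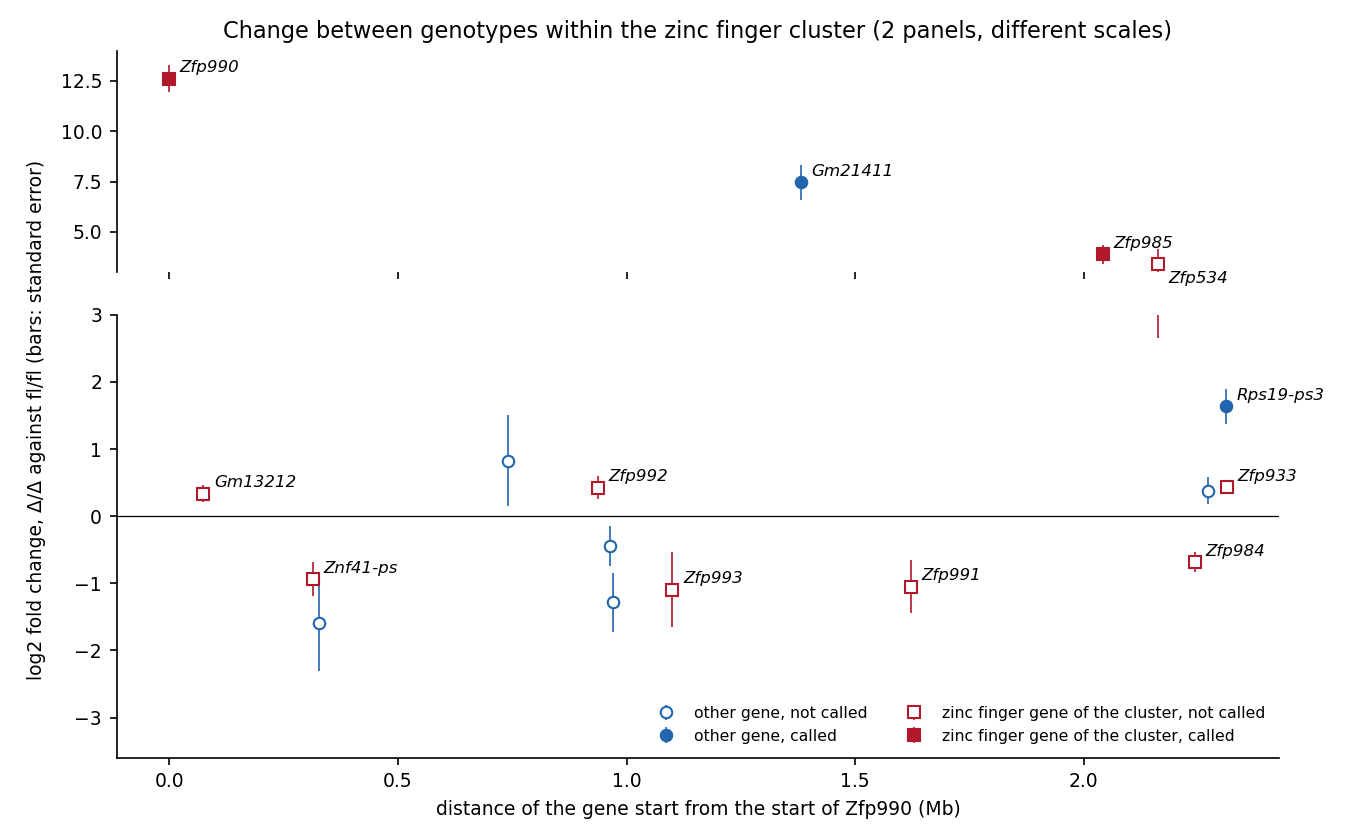
Fitted log2 fold change (Δ/Δ against fl/fl, bars show the standard error) of the 10 tested zinc finger genes and the 7 other tested genes inside their span against the distance of their start from that of *Zfp990* in Mb, with different scales in the upper and lower panels. The called genes (filled) *Zfp990*, *Gm21411*, *Zfp985* and *Rps19-ps3* are all above 0, and fitted values of genes without fl/fl reads depend on the prior count.

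*Angptl7* (ENSMUSG00000028989.3, 148495183 to 148500460, minus strand), which encodes a secreted angiopoietin-like protein, was like *Zfp990* read in all Δ/Δ libraries, with 2.68, 2.05 and 3.66 CPM, and in no fl/fl library. It was called under each of 12 alternatives (edgeR adjusted p = 0.00687, range over alternatives 2.31e-09 to 0.0376). The gene lies within *Mtor* on the other strand and shares 0 exon bases with it. No source used here says whether counting used the strand. *Angptl7* had 0 reads in fl/fl and 193 in Δ/Δ, where *Mtor* had 9359 and 6421. Whether reads of the *Mtor* transcript were counted for *Angptl7* was not tested. *Mtor* (ENSMUSG00000028991.15, 148448611 to 148557683, plus strand), a kinase of growth control, stood at 118, 125 and 124 CPM in the fl/fl libraries against 102, 85.2 and 92.1 CPM in the Δ/Δ libraries. It was lower in all Δ/Δ libraries and passed the adjusted p but not the fold limit (log2 fold change −0.40, SE 0.08, edgeR adjusted p = 0.0356, range over alternatives 5.88e-04 to 0.159).

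*Gm21411* (ENSMUSG00000045699.3, 146892406 to 146909590, minus strand), a predicted coding gene inside the cluster without C2H2 motifs, had no fl/fl read and 0.649, 1.03 and 1.06 CPM in the Δ/Δ libraries. It was at least 23.2-fold higher than the limit of 3 pooled reads (edgeR adjusted p = 0.0183). The call was lost without fl/fl 1 or 2, without Δ/Δ 3 and with the replicate block (edgeR adjusted p = 0.0739, 0.0737, 0.0580 and 0.0712, range over alternatives 5.61e-05 to 0.0739). *Gm21411* is 97.8% identical to *Zfp989* over 96.0% of its transcript, so its reads are uncertain. *Rps19-ps3* (ENSMUSG00000080059.4, 147821777 to 147822202, minus strand), a processed pseudogene beside *Zfp933*, stood at 1.16, 1.37 and 1.15 CPM in the fl/fl libraries against 2.92, 4.53 and 4.05 CPM in the Δ/Δ libraries. All Δ/Δ libraries were higher (log2 fold change 1.64, SE 0.26, edgeR adjusted p = 0.0202). The call was lost without fl/fl 1, 2 or 3 or Δ/Δ 3 (edgeR adjusted p = 0.119, 0.0992, 0.0834 and 0.0556, range over alternatives 1.96e-04 to 0.119). It shares 14.5% of its windows of 75 bases with *Rps19*, so its reads are uncertain, and *Rps19* itself stood at 630.2 ± 70.6 CPM in fl/fl against 594 ± 18.8 CPM in Δ/Δ.

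Of the most abundant other members *Tardbp*, which encodes the RNA-binding protein TDP-43, stood at 276 ± 11.4 CPM in fl/fl against 265 ± 17.1 CPM in Δ/Δ (log2 fold change −0.06, edgeR adjusted p = 0.655). *Vps13d*, a gene of lipid transfer, stood at 129 ± 4.58 CPM in fl/fl against 116 ± 6.42 CPM in Δ/Δ, and *2510039O18Rik* at 98.9 ± 5.17 CPM in fl/fl against 103 ± 6.81 CPM in Δ/Δ (log2 fold changes of −0.15 and 0.06, edgeR adjusted p = 0.263 and 0.716). None of these genes was called.

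Among members whose genotypes did not overlap, Δ/Δ 1 often lay nearest to the controls. On the scale of log2(CPM + 0.1), it was the Δ/Δ library closest to the fl/fl mean in 20 of 29 such tested members (69.0%), against Δ/Δ 2 in 7 and Δ/Δ 3 in 2. For the zinc finger genes it was closest in 8 of 9. Among all 3355 tested genes without overlap, it was closest in 1437 (42.8%), against Δ/Δ 2 in 1075 and Δ/Δ 3 in 843. It was closest in 7 of 12 on the telomere side and in 2 of 4 on the centromere side. *Miip* of the telomere side, named after its values were seen, stood at 27.9, 31.1 and 30.8 CPM in the fl/fl libraries against 23.6, 15.5 and 14.4 CPM in the Δ/Δ libraries. The cause of this order was not tested.

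**Figure D3:**
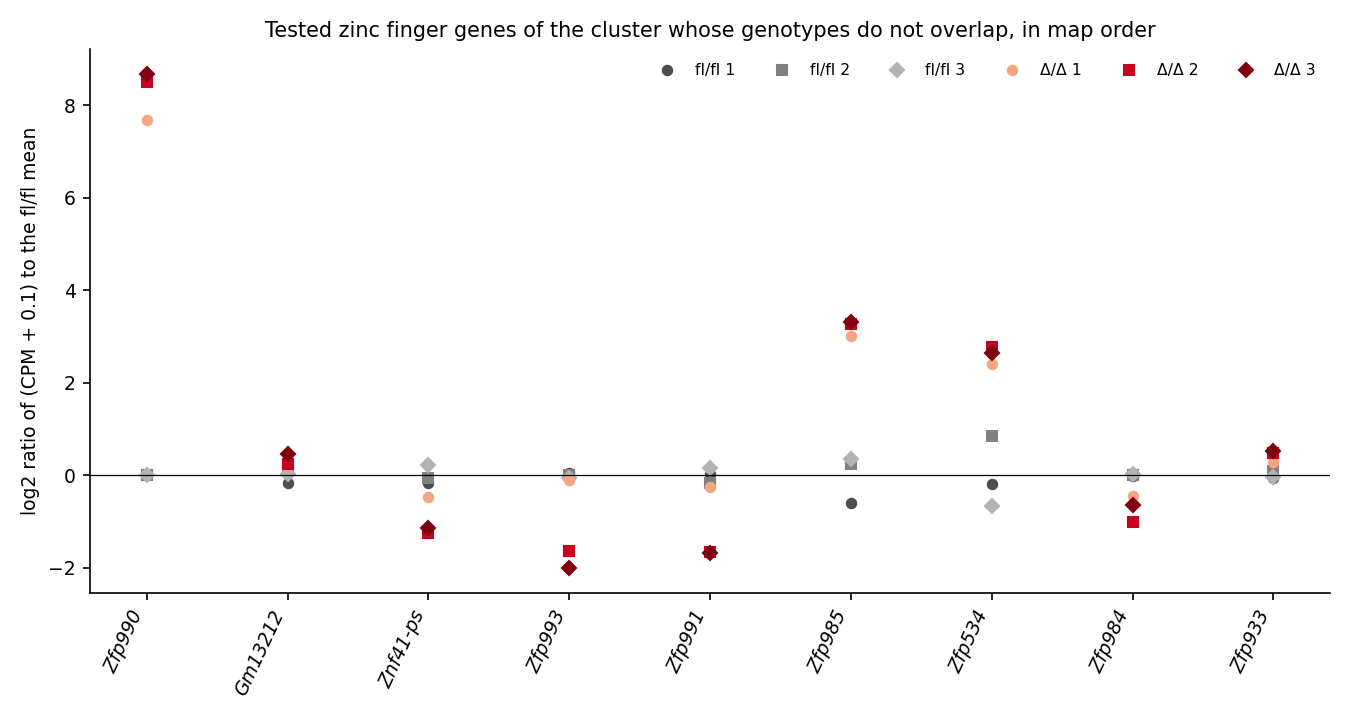
Log2 ratio of CPM + 0.1 in each library to the fl/fl mean for the 9 tested zinc finger genes whose genotypes do not overlap, in map order, 1 point per library. Δ/Δ 1 is the Δ/Δ library nearest to 0 in 8 of the 9 genes.

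Close copies limit how reads can be assigned, since only reads with 1 place in the genome were counted. Windows of 75 bases, the read length, that occur in no other annotated gene made up 91.5% of the longest transcript of *Zfp990*, 95.3% of *Zfp985* and 99.9% of *Zfp933*. They made up 58.4% of *Zfp984*, 52.1% of *Gm13212*, 46.4% of *Zfp534*, 21.3% of *Zfp993*, 19.97% of *Zfp991* and 17.0% of *Znf41-ps*. Reads came in pairs, so these percentages of single windows do not give the share of pairs that could be counted. The 3 tested zinc finger genes with at least 90% unique windows had log2 fold changes above 0, as did 3 of the 7 with fewer, and the 4 with log2 fold changes below 0 had 17.0 to 58.4%. *Zfp991* shared 64.2% of its windows with *Znf41-ps*, 49.4% with *Zfp992* and 33.0% with *Zfp993*. Summed over *Znf41-ps*, *Zfp991* and *Zfp993*, the level was 16.3, 15.5 and 18.9 CPM in the fl/fl libraries against 13.4, 5.79 and 5.90 CPM in the Δ/Δ libraries, so the sum was low in Δ/Δ 2 and 3 as well. With *Zfp992* added it was 24.7, 25.8 and 27.8 CPM against 23.4, 18.2 and 20.7 CPM. Whether reads moved to or from other copies was not tested.

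**Figure D4:**
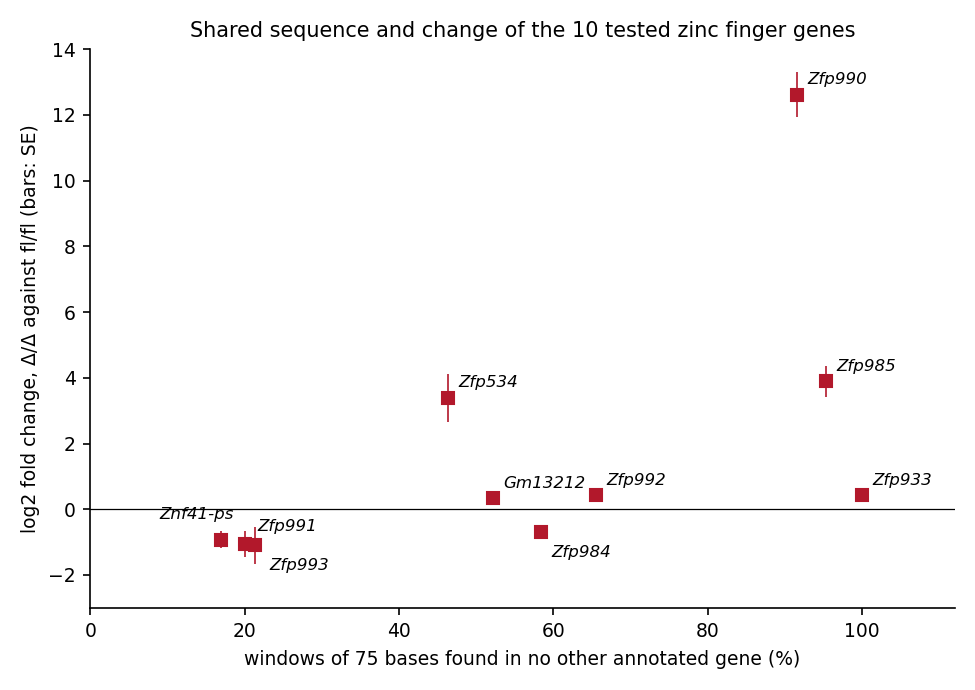
Fitted log2 fold change (Δ/Δ against fl/fl, bars show the standard error) of the 10 tested zinc finger genes against the percentage of windows of 75 bases found in no other annotated gene. *Zfp990*, *Zfp985* and *Zfp933* have at least 91.5% unique windows, and *Znf41-ps*, *Zfp991* and *Zfp993* at most 21.3%.

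Zinc finger genes elsewhere in the genome had no calls. Of 283 tested genes with the symbol Zfp and a number outside the window, 0 were called by edgeR, DESeq2 or limma-voom, against 1.86% of all tested genes by edgeR. An unadjusted p under 0.05 was reached by 34, 26 and 35 of them, against 19.4, 18.3 and 20.6% of all tested genes. *Zfp52*, *Zfp783* and *Zfp868*, named after their values were seen, passed the edgeR adjusted p but not the fold limit (log2 fold changes of 0.38, 0.68 and 0.97, adjusted p = 0.0401, 0.0477 and 0.00405). The median log2 fold change of the 283 was 0.04, and the genotypes did not overlap in 60 (21.2%), against 26.0% of all tested genes. Of 22 KRAB corepressor genes 21 were tested and 0 called by edgeR, DESeq2 or limma-voom, with 5, 4 and 4 at an unadjusted p under 0.05 and a median log2 fold change of −0.05. The genotypes did not overlap in 4 of the 21 (19.0%), 2 higher and 2 lower, against 26.0% of all tested genes. *Trim28*, which KRAB domains bind, stood at 293 ± 24.3 CPM in fl/fl against 284 ± 26.0 CPM in Δ/Δ (log2 fold change −0.05, edgeR adjusted p = 0.823). *Setdb1*, the histone methyltransferase recruited with it, stood at 87.8 ± 2.13 CPM in fl/fl against 91.8 ± 3.30 CPM in Δ/Δ (log2 fold change 0.06, edgeR adjusted p = 0.571). *Hdac1*, a histone deacetylase, stood at 99.3 ± 4.59 CPM in fl/fl against 71.7 ± 9.57 CPM in Δ/Δ and missed the threshold (its log2 fold change was −0.47, edgeR adjusted p = 0.0564). Of 16 genes of pluripotent cells and the early embryo 13 were at 0 in every library, *Pou5f1*, *Nanog* and *Zfp42* among them, and *Klf2* alone was tested (log2 fold change −0.14, edgeR adjusted p = 0.489). *Trim28*, *Setdb1*, *Hdac1* and *Klf2* were named after their values were seen.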

How the data were processed

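Counts of RNA-seq reads per gene were used from 3 fl/fl and 3 Δ/Δ cDC1 libraries. The authors read 2×75 bases, aligned to mm10 with STAR 2.6.1a and Gencode vM19, and deposited raw counts of uniquely mapping reads. STAR's tallies off genes (3.26 to 4.20% unmapped, 5.33 to 5.76% at several places, 8.57 to 10.3% on no gene, 1.81 to 1.98% ambiguous) were left out. GENCODE M21 gave names and coordinates for 54409 gene identifiers, matched without version, and 123 were not matched.

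Genotypes were compared by edgeR 4.0.16 (R 4.3.3, TMM, filterByExpr with its minimum count at 10 and minimum total at 15, quasi-likelihood test, Benjamini-Hochberg adjustment over 12894 genes). Within a genotype no pair of libraries was as alike as sampling noise (chi-square per degree of freedom 6.35 to 38.5). Alternatives were other size factors, DESeq2 1.42.0, limma-voom (limma 3.58.1), no or a stricter filter, a replicate block, other limits of a call, protein coding genes alone, and each library left out. The steps were tested on simulated counts.

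Zinc finger genes of the cluster have a Zfp or Znf symbol or at least 3 C2H2 motifs (C, 2 residues, C, 12 residues, H, 3 to 5 residues, H). Motifs were counted in translated GENCODE coding sequences in place of RefSeq proteins, which were not used here. Named were the zinc finger genes, other called members, the 5 most abundant other members, genes next to the limits, *Jun*, *Junb*, *Itgax* and called list genes. Members that this would name and the text does not are not reported here, but are in the counts of groups. Others are said to be named after their values were seen, except *Rps19*, *Gm20707* and marker genes at 0 or most abundant in a list. Transcripts were compared with BLAST+ and promoters with Biopython 1.88. Python 3.11.15, numpy 2.4.6, pandas 2.3.3 and matplotlib 3.10.9 were used. The members and lists were chosen with earlier results of these data known.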

Additional observations from a re-analysis of the deposited data

How the results depend on the processing

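The 240 genes called over the whole table became 385 by DESeq2, 500 by adjusted p alone and 74 to 579 with 1 library left out. The 2 zinc finger genes called became 4 with no filter (*Zfp534* and *Zfp981* added), 1 with the stricter filter, which no longer tests *Zfp985*, *Zfp534* and *Gm21411*, and 1 to 7 with 1 library left out. The 4 other genes called became 1 to 6 with 1 library left out. With the replicate block they became 2 (*Angptl7* and *Rps19-ps3*), and the whole table gave 207 calls, 189 of them shared. Whether the replicate numbers pair the samples is not known. Deviations of libraries with the same number correlated at 0.091, −0.148 and 0.2, and with 3 libraries per genotype such values cannot decide it. From the data, fl/fl 1 and 3 correlated best with the Δ/Δ library of their own number and fl/fl 2 with Δ/Δ 1. The median log2 fold change of the zinc finger genes, 0.38, was −0.17 with the stricter filter, which leaves 8 genes, and 0.28 to 0.50 with 1 library left out. That of the other genes, 0.05, ran from −0.01 to 0.06 over all alternatives. The log2 fold change of *2510039O18Rik*, 0.06 and not called, was −0.0002 to 0.0933 with 1 library left out, below 0 only without Δ/Δ 2. Of the other values of single genes under an alternative, 243 kept their direction and whether both limits of a call were met, 19 lost a call and 10 gained one. Adjusted p alone crossed 0.05 in more of them: *Zfp984* was under it in 7 of 12 alternatives, *Zfp933* in 2 and *Mtor* in 7. Where fewer genes or libraries do not account for a move by construction, the cause was not tested. Depth limits *Zfp985* most among called genes with reads in both genotypes, at 9 reads in fl/fl.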
